A study of Mus musculus with 4 samples.

Results

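The data described here are 2 of 4 chromatin immunoprecipitation-sequencing (ChIP-seq) peak lists from activated mouse regulatory T (Treg) cells, those of BATF in Junb-sufficient cells and of IRF4 in Junb-deficient cells. A peak is a stretch of genome in which more immunoprecipitated fragments were sequenced than in its surroundings. The lists hold 13570 BATF sites and 29033 IRF4 peaks, together 42603 of the 103355 peaks in the 4 lists, in coordinates of the mouse assembly mm9. A BATF site was taken to hold an IRF4 peak where both peaks overlapped by at least 1 bp, which defined 3 classes: 10148 BATF sites that held a Junb-deficient IRF4 peak, 3422 BATF sites that did not, and 18885 Junb-deficient IRF4 peaks off BATF. The other lists, JunB and IRF4 of Junb-sufficient cells, were used to describe these classes.

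The cells were CD4+CD25+ Treg cells from spleens of C57BL/6 mice, activated for 60 h with antibodies to CD3 and CD28 and with IL-2, then crosslinked with formaldehyde and digested with micrococcal nuclease. Per the study's account the Junb-sufficient cells came from Junb fl/fl mice, whose loxP-flanked Junb is intact. By the same account the Junb-deficient cells came from Cd4Cre Junb fl/fl mice. In those mice Cre driven by Cd4 deletes Junb in T cells, and not in Treg cells alone. The labels instead name Foxp3cre with JUNB+/+ and with JUNBFl/Fl, so that under the labels both groups carry Foxp3-driven Cre. Each condition had 1 library. The ChIP-seq list of BATF used here is that of Junb-sufficient cells, and BATF binding without Junb was not analysed here. The lists carry no peak heights, since the score of every peak is 1, and a peak could only be described as listed or not listed and by its place in the list. For the library of Junb-sufficient cells named BATF in its title, the antibody field of the labels names IRF4. The title and the name recorded in the list itself were followed.

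BATF is an AP-1 family transcription factor that pairs with a Jun protein such as JunB through leucine zippers and lacks an activation domain of its own. The BATF-Jun pair recruits IRF4, a factor induced by T cell receptor signals, to AP-1-IRF composite elements (AICE), in which an AP-1 element lies beside a short IRF element. IRF4 also binds interferon-stimulated response elements (ISRE) without AP-1 and, with ETS family factors, ETS-IRF composite elements (EICE), and it is needed for the effector program of activated Treg cells (eTreg cells).

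The sequences below show the letters on which the classes were compared, and they come from the 3 highest-placed peaks of each class with a composite or IRF element within 100 bp of the peak centre. All are plus strand mm9 sequence written 5′ to 3′, none overlaps an annotated exon, and the capitals mark the matched element with 30 bases on either side. The first set are BATF sites that held an IRF4 peak without Junb, with an AICE in capitals. They lie at chr9:119175044-119175114 in an intron, 1173 bp upstream of the nearest transcription start site (TSS), of Oxsr1, and at chr8:48026815-48026885, 45419 bp upstream of Enpp6. Their places in the BATF list were 12 and 13, and those in the Junb-deficient IRF4 list 25 and 16. In the Oxsr1 sequence the same run of bases stands on both sides of the AICE, so the site lies in repeated sequence. Whether the repeat bears on its places was not tested.
Oxsr1 site: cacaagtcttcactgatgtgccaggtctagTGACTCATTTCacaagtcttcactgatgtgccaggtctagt
Enpp6 site: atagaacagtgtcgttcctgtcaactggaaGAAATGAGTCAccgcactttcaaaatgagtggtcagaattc

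The second set are BATF sites with an AICE that held an IRF4 peak in Junb-sufficient cells and none in Junb-deficient cells. They lie between genes, at chr7:97151411-97151481, chr9:32732741-32732811 and chr11:43977775-43977849, with Eed, Ets1 and Il12b as the genes of the nearest TSS. Their places in the BATF list were 283, 297 and 713, and each also held a JunB peak.
Eed site: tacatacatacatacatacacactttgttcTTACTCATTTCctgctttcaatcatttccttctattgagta
Ets1 site: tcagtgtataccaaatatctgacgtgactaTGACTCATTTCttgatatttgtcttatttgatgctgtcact
Il12b site: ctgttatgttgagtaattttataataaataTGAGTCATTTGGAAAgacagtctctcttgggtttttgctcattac

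The third set are Junb-deficient IRF4 peaks off BATF, with an ISRE in capitals. They lie at chr7:127015896-127015965 in an intron near Dcun1d3, at chr14:54847063-54847132 between genes near Dad1, and at chr5:24192212-24192281, 611 bp downstream of the Nub1 TSS. Their places in the Junb-deficient IRF4 list were 295, 338 and 454. AICE letters thus stand both at BATF sites that held IRF4 without Junb and at sites that did not, as the shares given further on show for the whole lists.
Dcun1d3 peak: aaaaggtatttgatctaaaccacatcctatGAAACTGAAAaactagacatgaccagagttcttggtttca
Dad1 peak: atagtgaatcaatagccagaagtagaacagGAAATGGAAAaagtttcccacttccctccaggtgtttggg
Nub1 peak: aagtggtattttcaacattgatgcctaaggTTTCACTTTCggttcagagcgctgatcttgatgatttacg

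Depth was similar in both libraries. The recorded totals were 26496780 tags for BATF and 21127029 for Junb-deficient IRF4, of which 16.1 M and 17.9 M (M standing for mega) remained at 1 tag per bp. Peaks took up 5.03% and 11.15% of the tags, and a peak needed 19 tags in both. Nearly all BATF peaks were 613 bp wide and nearly all Junb-deficient IRF4 peaks 605 bp. The JunB list differed, with nearly all peaks 151 bp wide and 10 tags needed. Overlap with a JunB peak was thus counted on narrower peaks called at a lower threshold. How far the JunB shares and odds ratios below depend on this was not tested. With 1 library per condition no test between conditions could be made, and the 95% intervals given below are exact binomial (Clopper-Pearson) intervals for the number of peaks counted, which leave out any spread between cell preparations. The start of the lists also holds places that were high in every library. Of the first 5 BATF sites 4 stood in all 4 lists, among them sites beside the predicted genes Gm10800 and Gm10718, both within the first 3 places of the BATF and Junb-deficient IRF4 lists.

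Most BATF sites held an IRF4 peak in the absence of Junb. IRF4 was listed at 10148 of 13570 sites, a share of 74.8% (95% interval 74.0 to 75.5%). In Junb-sufficient cells the share was 88.6% (88.0 to 89.1%), and a JunB peak was listed at 70.7% of the sites (70.0 to 71.5%). Seen from the IRF4 list, 35.0% of the Junb-deficient peaks lay on a BATF site (34.4 to 35.5%), compared with 38.7% of the Junb-sufficient peaks (38.1 to 39.2%). With the BATF and IRF4 libraries of Junb-sufficient cells exchanged, as the antibody field has them, 65.0% of the sites held a Junb-deficient IRF4 peak and 69.6% of the Junb-deficient peaks lay on a BATF site. No IRF4 peak was the best partner of more than 1 site, so the sites and the peaks paired 1 to 1. The paired centres lay close together, with a median distance of 24.0 bp, and 90% of them were within 164 bp.

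Taking both genotypes together, 9751 BATF sites held IRF4 in both, 2268 in Junb-sufficient cells only, 397 in Junb-deficient cells only, and 1154 in neither. Of the 12019 sites with a Junb-sufficient IRF4 peak, 81.1% (80.4 to 81.8%) also held a Junb-deficient one, compared with 25.6% (23.4 to 27.8%) of the 1551 sites without. The 3422 sites without Junb-deficient IRF4 were therefore a mixed class, in which 66.3% had held IRF4 in Junb-sufficient cells.

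The share of BATF sites with IRF4 was highest at the start of the list. Along the BATF list, cut into 10 equal parts, the share with a Junb-deficient IRF4 peak fell in each part, from 95.7% in the first to 76.7% in the fifth and 53.0% in the last. In Junb-sufficient cells the corresponding shares were 98.3% in the first part and 72.3% in the last. The IRF4 list gave a steeper course, with 86.2% of its first part on a BATF site, 29.1% of the fifth and 10.4% of the last. The order of the lists is not named in their headers, and these courses are what ties the place to peak strength here.

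**Figure D1:**
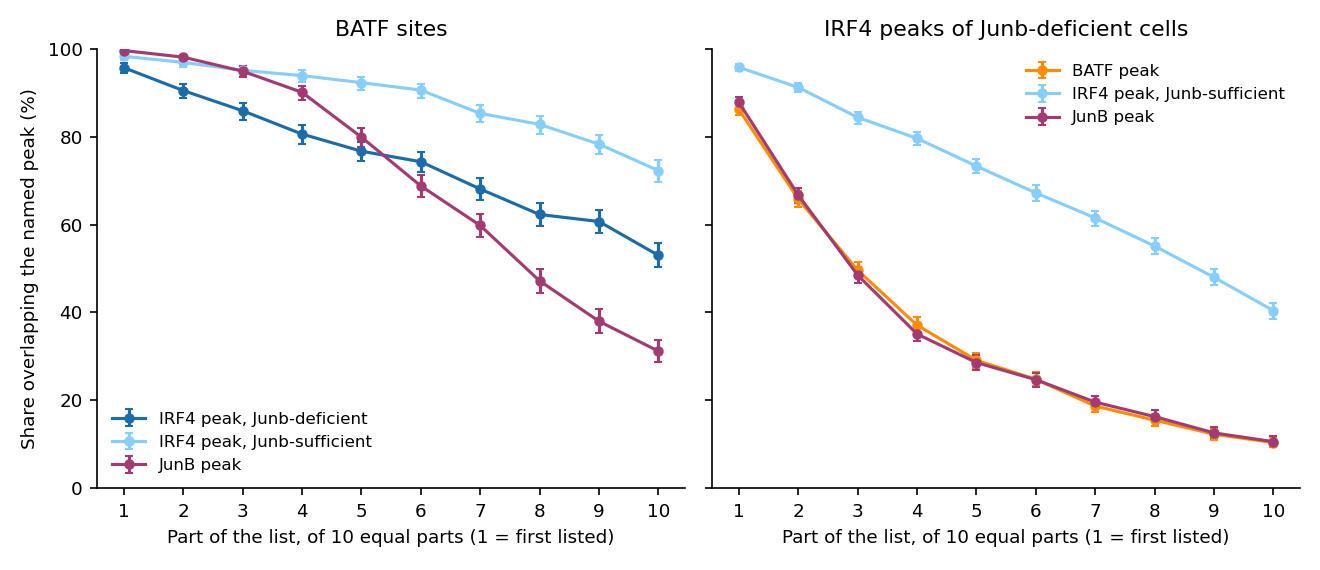
Shares of BATF sites (left) and of IRF4 peaks of Junb-deficient cells (right) that overlap the named peak, in %, by 10 equal parts of the list from its start; points are shares and bars exact binomial 95% intervals over peaks. In the left panel the share with a Junb-deficient IRF4 peak runs from 95.7% to 53.0%, and in the right panel the share on a BATF site runs from 86.2% to 10.4%.

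Sites that held IRF4 without Junb had a median place at 42.8% of the BATF list, and those that did not at 69.3%. Likewise, Junb-deficient IRF4 peaks on BATF had a median place at 24.2% of their list and those off BATF at 62.2%. Places in both lists ran together at the 10148 shared sites, with a rank correlation of 0.62 across sites, compared with 0.81 between BATF and Junb-sufficient IRF4 over 12019 sites. These correlations describe sites that share libraries and were not tested. Sites of Junb-sufficient IRF4 whose counterpart was not listed in Junb-deficient cells had already stood lower in Junb-sufficient cells, with a median place at 41.0% of that list compared with 18.9% at the sites with a counterpart.

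Because place separated the classes, the main comparisons of the classes below are also given as a Mantel-Haenszel odds ratio over 20 equal strata of place, which compares peaks of like place. An odds ratio of 1 means that both groups of peaks held the partner alike. The ratios and their intervals are descriptions of these lists.

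BATF sites compared with the rest of the IRF4 map illustrate the step. A Junb-sufficient IRF4 peak on BATF had a Junb-deficient counterpart in 81.2% (80.5 to 81.9%), and one off BATF in 54.8% (54.1 to 55.5%), an odds ratio of 3.56 (3.38 to 3.76). Among peaks of like place in the Junb-sufficient IRF4 list the odds ratio was 1.22 (1.15 to 1.31). IRF4 peaks on BATF were thus listed again more often than those off BATF, and most of the crude difference went with their higher place. The remaining difference was uneven along the Junb-sufficient IRF4 list. Of its 10 equal parts, the first had 96.2% on and 72.9% off BATF, the fifth 69.9% and 69.1%, and the last 38.5% and 31.8%.

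JunB peaks behaved in the same manner. They stood at 75.5% (74.6 to 76.3%) of BATF sites with Junb-deficient IRF4 and at 56.7% (55.0 to 58.4%) of those without, an odds ratio of 2.35 (2.17 to 2.55) that came to 1.14 (1.03 to 1.25) at like BATF place. Off BATF only 13.8% (13.4 to 14.3%) of the Junb-deficient IRF4 peaks overlapped a JunB peak.

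Among sites with a Junb-sufficient IRF4 peak, the direction turned at like place but not as counted. Of 8962 such sites with JunB, 83.5% (82.7 to 84.3%) held Junb-deficient IRF4, and of 3057 without JunB, 74.1% (72.5 to 75.7%). At like BATF place the odds ratio for JunB was 0.887 (0.793 to 0.993), and at like place in the Junb-sufficient IRF4 list 0.654 (0.583 to 0.734). Sites with JunB thus held Junb-deficient IRF4 more often as counted, and less often than sites without JunB whose Junb-sufficient IRF4 peak stood equally high.

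At sites that held IRF4 in both genotypes, the place of IRF4 could be followed from one list to the other. With a JunB peak (7485 sites), the median shift was 2.73 percentage points of the list towards its end in Junb-deficient cells. There 19.8% of the sites moved down by more than 20 points and 3.07% moved up by as much. Without a JunB peak (2266 sites) the corresponding shares were 18.5% and 12.8%, and the median shift was -0.12 points. Downward moves of this size were about as common in both groups, and upward moves were fewer at sites with JunB, which also stood higher to begin with.

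Neighbouring peaks also differed between the classes. HOMER, the peak caller, drops a peak that does not exceed the surrounding 10 kb by 4-fold, and this step had removed 36.2% of the putative peaks in either library. In the JunB library it had removed 5.25%. A Junb-deficient IRF4 peak centre lay within 5 kb of 27.0% (25.5 to 28.5%) of the BATF sites without an overlapping one, whereas a second one lay within 5 kb of 6.49% (6.02 to 6.99%) of those with one. Within 10 kb the shares were 48.4% and 37.0%. Among the 8162 BATF sites with no other Junb-deficient IRF4 peak within 10 kb, a choice made after seeing the data, 78.4% (77.5 to 79.3%) held Junb-deficient IRF4. Whether the local filter removed IRF4 peaks at the other sites was not tested.

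By annotation, BATF sites of both classes lay mostly in introns and between genes, while IRF4 peaks off BATF were often at promoters. A promoter was taken as the 1 kb on either side of a TSS of a protein-coding gene. The centre lay in a promoter at 8.45% (7.91 to 9.00%) of BATF sites with Junb-deficient IRF4, at 5.93% (5.16 to 6.78%) of those without, and at 25.3% (24.7 to 25.9%) of IRF4 peaks off BATF. Introns held 46.9%, 47.1% and 36.1% of the same classes, and intergenic sequence 42.4%, 44.4% and 36.4%.

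The median distance to the nearest TSS was 18435 bp at BATF sites with Junb-deficient IRF4, 18538 bp at those without, and 11280 bp at IRF4 peaks off BATF. Counted from the TSS with promoters included, 22.5% and 22.9% of sites of the BATF classes lay within 5 kb and 87.2% and 86.3% within 100 kb. Within 1 kb the shares were 8.45% and 5.93%. A larger share of the sites without Junb-deficient IRF4 therefore lay between 1 kb and 5 kb of a TSS. The median GC content around the centres was 41.8%, 40.8% and 45.8% in the same order. Whether this went with the promoter shares was not tested.

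**Figure D2:**
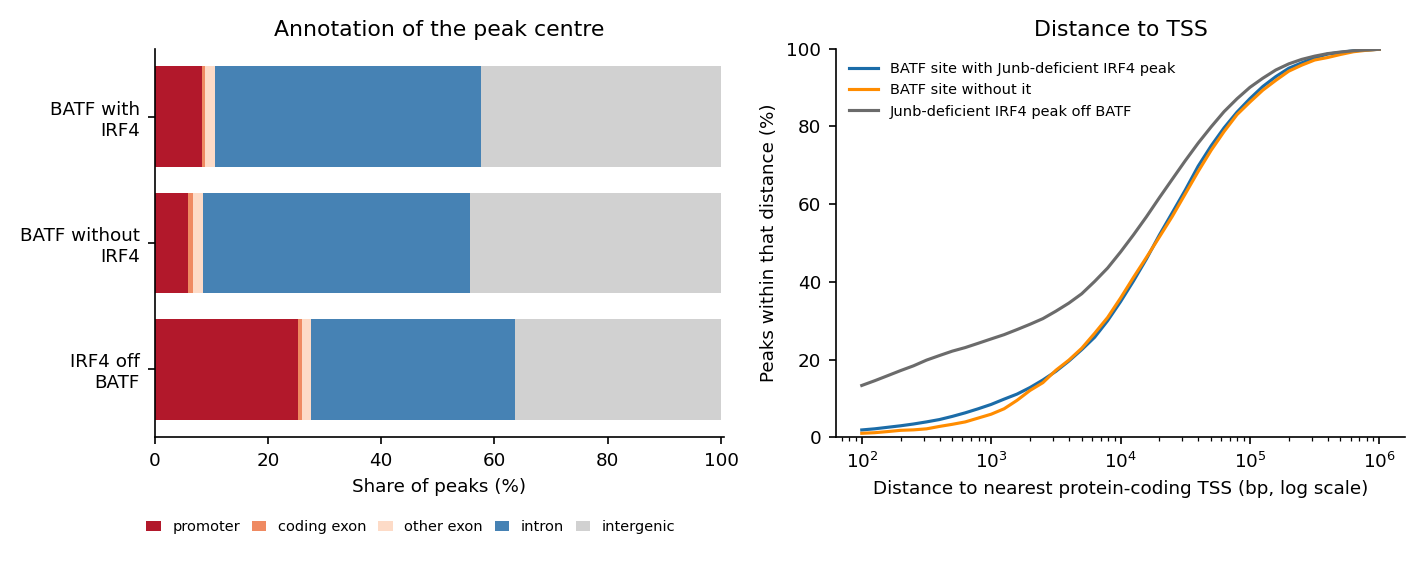
Left, share of peaks in % by annotation of the peak centre in the 3 classes; right, cumulative share of peaks in % within a given distance of the nearest protein-coding TSS (bp, log scale). IRF4 peaks off BATF were at promoters in 25.3%, BATF sites with Junb-deficient IRF4 in 8.45% and BATF sites without in 5.93%, and the curves of both BATF classes run close together beyond a few kb.

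The promoter differences were found at like place as well, with the libraries taken by their titles. The promoter share off BATF then exceeded that of BATF sites with Junb-deficient IRF4 by 16.9 percentage points, and with the BATF and IRF4 libraries exchanged as in the antibody field by 0.220 points, so this contrast rests on the titles. At like BATF place, promoter sites held Junb-deficient IRF4 more often than other sites, with an odds ratio of 1.95 (1.66 to 2.29), above the crude 1.46 (1.25 to 1.71). At like IRF4 place, promoter peaks lay on BATF less often than other peaks, with an odds ratio of 0.319 (0.292 to 0.348). The promoter share of peaks off BATF was not even along the list. It was 8.25% (5.75 to 11.4%) in the first of 10 parts, reached 33.5% (31.5 to 35.5%) in the sixth and was 19.1% (17.6 to 20.7%) in the last. On BATF it stayed between 4.49% and 12.0% in all 10 parts.

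At the level of genes, with each peak given to the gene of its nearest TSS, 1037 genes had a BATF site within 1 kb of a TSS and 4644 had a Junb-deficient IRF4 peak off BATF there.

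Motifs were matched as fixed letters on both strands within 100 bp of each peak centre, where N stands for any base. AP-1 letters were TGANTCA. The IRF element was taken as GAAA, and ISRE letters were a pair of IRF elements in the same direction with 2 bases between them. EICE letters were the ETS core GGAA followed, after 2 bases, by an IRF element. AICE letters were an IRF element directly before an AP-1 element, or an inverted IRF element that ended 4 bases before it, and the AP-1 element could then end in TAA as well as in TCA. CGGAAG stood for the ETS family alone. TGTGGTT stood for RUNX factors. The AICE forms that end in TCA contain the AP-1 letters, so these counts overlap. A set of 31251 windows of the same length, taken 5 kb downstream of the peaks and clear of any peak, gave the share of matches in nearby sequence. A match describes the letters and not a binding site.

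AP-1 letters were frequent at BATF sites of both classes, and more so where no Junb-deficient IRF4 peak was listed. They stood in 41.4% (40.4 to 42.4%) of windows of sites with Junb-deficient IRF4, in 49.1% (47.4 to 50.8%) of sites without, in 12.6% (12.1 to 13.0%) of IRF4 peaks off BATF and in 5.73% (5.47 to 5.99%) of the nearby windows. At like BATF place, sites with AP-1 letters held Junb-deficient IRF4 less often than sites without them, with an odds ratio of 0.601 (0.553 to 0.653). The share with AP-1 letters was 52.0% (49.2 to 54.7%) in the first part of the BATF list for sites with Junb-deficient IRF4 and 51.7% (38.2 to 65.0%) for the 58 sites without. In the last part it was 29.3% (26.0 to 32.8%) and 40.0% (36.1 to 43.9%).

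The history of the site divided these shares further. AP-1 letters stood in 57.5% (55.4 to 59.5%) of the sites with IRF4 in Junb-sufficient cells only, in 41.9% (40.9 to 42.9%) of those with IRF4 in both genotypes, in 29.0% (24.6 to 33.7%) of those with IRF4 in Junb-deficient cells only, and in 32.6% (29.9 to 35.4%) of those with IRF4 in neither. Among sites with Junb-sufficient IRF4, at like place of that peak, the odds ratio for AP-1 letters was 0.441 (0.399 to 0.488).

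It was below 1 whether or not the site held a JunB peak. With a JunB peak the odds ratio was 0.487 (0.431 to 0.551), with AP-1 letters in 46.1% of sites that kept an IRF4 peak and 61.6% of those that did not. Without a JunB peak it was 0.402 (0.337 to 0.480), with shares of 27.9% and 49.8%. Within the sites with AP-1 letters the odds ratio for JunB was 0.802 (0.676 to 0.952), and within those without the letters 0.676 (0.574 to 0.796), both at like place of Junb-sufficient IRF4.

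Over all BATF sites, AICE letters differed less between the classes than AP-1 letters. They stood in 6.97% (6.48 to 7.48%) of the windows of BATF sites with Junb-deficient IRF4 and 6.22% (5.44 to 7.09%) of those without, and in 1.54% (1.37 to 1.72%) of peaks off BATF and 0.301% (0.243 to 0.368%) of nearby windows. At like BATF place the odds ratio was 0.897 (0.757 to 1.06), an interval that includes 1 and does not exclude a difference of about the size of its lower bound. BATF sites with Junb-sufficient IRF4 were also divided by JunB. At those with a JunB peak, AICE letters stood in 7.78% (7.18 to 8.41%) of the sites that held Junb-deficient IRF4 and 6.43% (5.23 to 7.81%) of those that did not. With no JunB they stood in 4.50% (3.68 to 5.44%) and 8.09% (6.29 to 10.2%). At like place of the Junb-sufficient IRF4 peak the odds ratios were 1.10 (0.864 to 1.40) with JunB and 0.600 (0.425 to 0.849) with no JunB, and these intervals do not overlap.

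ISRE and RUNX letters were more frequent where IRF4 was listed without Junb. ISRE letters stood in 10.4% (9.84 to 11.0%) of BATF sites with Junb-deficient IRF4, in 4.82% (4.13 to 5.59%) of those without, in 12.2% (11.8 to 12.7%) of peaks off BATF and in 2.89% (2.71 to 3.08%) of nearby windows. The odds ratio at like BATF place was 2.36 (1.99 to 2.81), and at sites with Junb-sufficient IRF4 and like place of that peak 2.54 (2.04 to 3.16). It was 2.49 (1.90 to 3.26) with and 2.56 (1.77 to 3.70) without a JunB peak. RUNX letters stood in 12.3%, 7.54%, 12.4% and 5.22% in the same order of classes, with an odds ratio of 1.78 (1.54 to 2.06) at like BATF place.

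ETS letters belonged mainly to the promoter peaks off BATF. They stood in 10.8% of the peaks off BATF and in 30.2% of those at promoters, compared with 3.48% of BATF sites with Junb-deficient IRF4, 2.51% of those without and 2.80% of nearby windows. Between the BATF classes the odds ratio for ETS letters at like BATF place was 1.67 (1.31 to 2.13), more frequent with Junb-deficient IRF4. AP-1 letters stood in 4.83% and ISRE letters in 5.57% of the 4779 promoter peaks off BATF, compared with 15.2% and 14.5% of the 14106 other peaks off BATF. EICE letters ranged from 2.81% to 3.90% in the 3 classes, above 2.04% in nearby windows, and the odds ratio between the BATF classes was 1.22 (0.959 to 1.55).

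**Figure D3:**
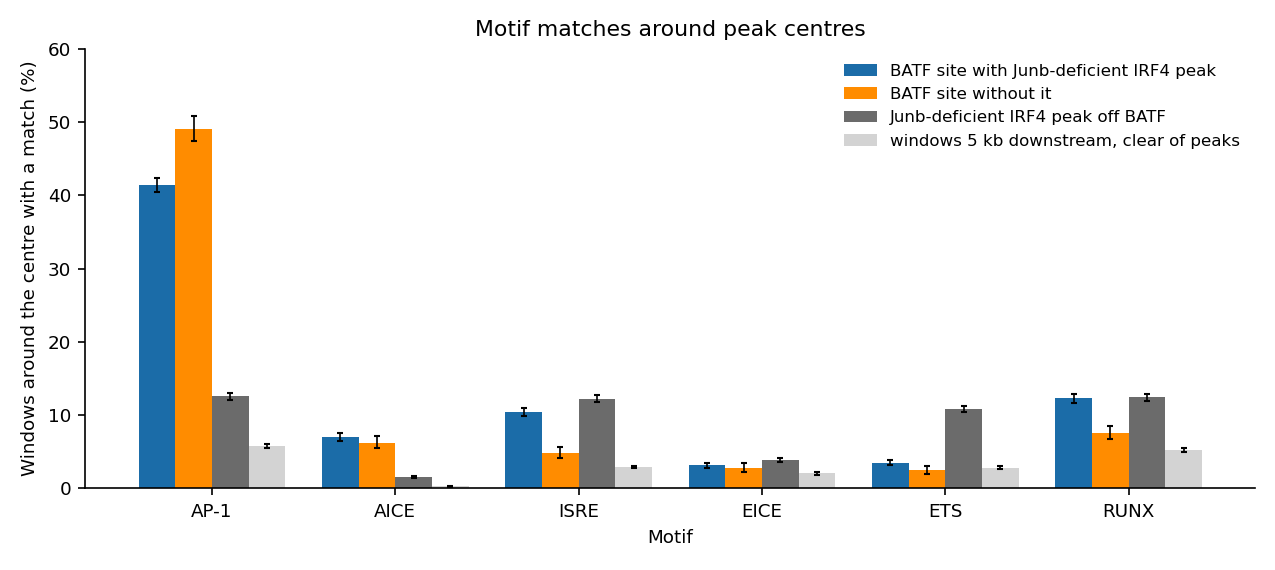
Share of windows reaching 100 bp to either side of the peak centre with a match to each set of letters, in %, for the 3 classes of peaks and for windows 5 kb downstream; bars start at 0 and whiskers are exact binomial 95% intervals over windows. AP-1 letters were most frequent at BATF sites without Junb-deficient IRF4 (49.1%), ISRE letters least frequent there among the 3 classes (4.82%), and ETS letters most frequent off BATF (10.8%).

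The AP-1 letters lay near the centre, with a median distance of 18 bp at BATF sites with Junb-deficient IRF4 and 19 bp at those without. ISRE letters lay at a median of 33.5 and 43.5 bp in the same classes, and at 25.5 bp in peaks off BATF. At BATF sites with no other Junb-deficient IRF4 peak within 10 kb the odds ratios at like place were 0.596 (0.532 to 0.669) for AP-1, 2.42 (1.91 to 3.07) for ISRE and 1.68 (1.38 to 2.05) for RUNX letters, each within the interval found over all sites.

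Near genes, the share of BATF sites with Junb-deficient IRF4 was similar across the gene lists examined. Within 100 kb of a TSS of a protein-coding gene, 8846 of 11799 BATF sites held one, a background of 75.0% (74.2 to 75.8%). Near 13 genes of the eTreg program that the study names as dependent on JunB or BATF, 66 of 81 sites did (81.5%, 71.3 to 89.2%), an interval that includes the background. The study named dependence on JunB from RNA-seq of splenic CD4+CD25+ Treg cells, for which it states no activation in culture. The eTreg genes and the dependence on BATF came from earlier published data. The sites of these genes stood high in the BATF list, at a median of 26.8% of the list. All BATF sites near genes, weighted to the places of these 81, held Junb-deficient IRF4 in 82.8%.

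The eTreg genes were also divided by the factor named. For genes dependent on both JunB and BATF (Icos, Fgl2 and Klrg1), 17 of 21 sites held Junb-deficient IRF4, for those named only for JunB (Ctla4, Tigit, Maf and Gzmb) 24 of 29, and for those named only for BATF (Prdm1, Nt5e, Il1rl1, Ccr2, Ccr9 and Ccr10) 31 of 39. These are 81.0% (58.1 to 94.6%), 82.8% (64.2 to 94.2%) and 79.5% (63.5 to 90.7%), and the small numbers of sites would not show a difference of moderate size. Icos and Ctla4 are neighbours and share 8 of their sites.

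Among the other lists, genes of AP-1 and related bZIP factors had the highest share, 57 of 65 sites (87.7%, 77.2 to 94.5%), with an interval above the background. Their sites stood at a median of 34.2% of the BATF list, and all sites near genes at their places held Junb-deficient IRF4 in 78.8%, which that interval includes. Genes of Treg identity and suppression had 45 of 58 (77.6%), transcription factors of helper lineages 86 of 110 (78.2%), cytokines and their receptors 69 of 87 (79.3%), interferon regulatory factors 23 of 28 (82.1%), and interferon-stimulated genes 34 of 42 (81.0%). Genes of other cell types, such as the liver gene Alb, had 24 of 30 (80.0%). This share therefore did not set genes of other cell types apart. Those 15 genes had 30 BATF sites at a median of 58.8% of the list, 53.3% of them with a JunB peak, compared with 81 sites at 26.8% and 84.0% for the 13 eTreg genes. Peak lists hold no expression by which the labelled cell type could be checked. Among listed genes with 4 or more sites, the share was lowest at Bcl6, which encodes the transcriptional repressor that directs follicular helper T cells (2 of 5), and at Batf2 and Ikzf1 (2 of 4 each).

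The share of Junb-deficient IRF4 peaks off BATF ranged more widely among the lists. Within 100 kb of any protein-coding TSS, 65.8% (65.2 to 66.4%) of the Junb-deficient IRF4 peaks were off BATF. Near the eTreg genes it was 46.3% (37.3 to 55.6%) of 123 peaks, and near the AP-1 family genes 55.8% (46.8 to 64.5%) of 129, and near the transcription factors of helper lineages 57.2% (50.1 to 64.2%), or 115 peaks off BATF. These intervals lie below the share for all peaks near genes, but the peaks stood high in the IRF4 list, at medians of 24.9%, 40.3% and 23.5%. All peaks near genes at their places were off BATF in 49.1%, 56.2% and 49.3%, which the eTreg and AP-1 intervals include and the helper interval exceeds. Near interferon-stimulated genes the share off BATF was 73.2% (64.6 to 80.7%) of 127, and near the interferon regulatory factors 72.9% (62.2 to 82.0%) of 85. Near cytokines and their receptors it was 63.9% (56.6 to 70.7%) of 191. These intervals include the share for all peaks near genes. All peaks at their places were off BATF in 61.0%, 58.6% and 53.2%, and each interval lies above that value.

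**Figure D4:**
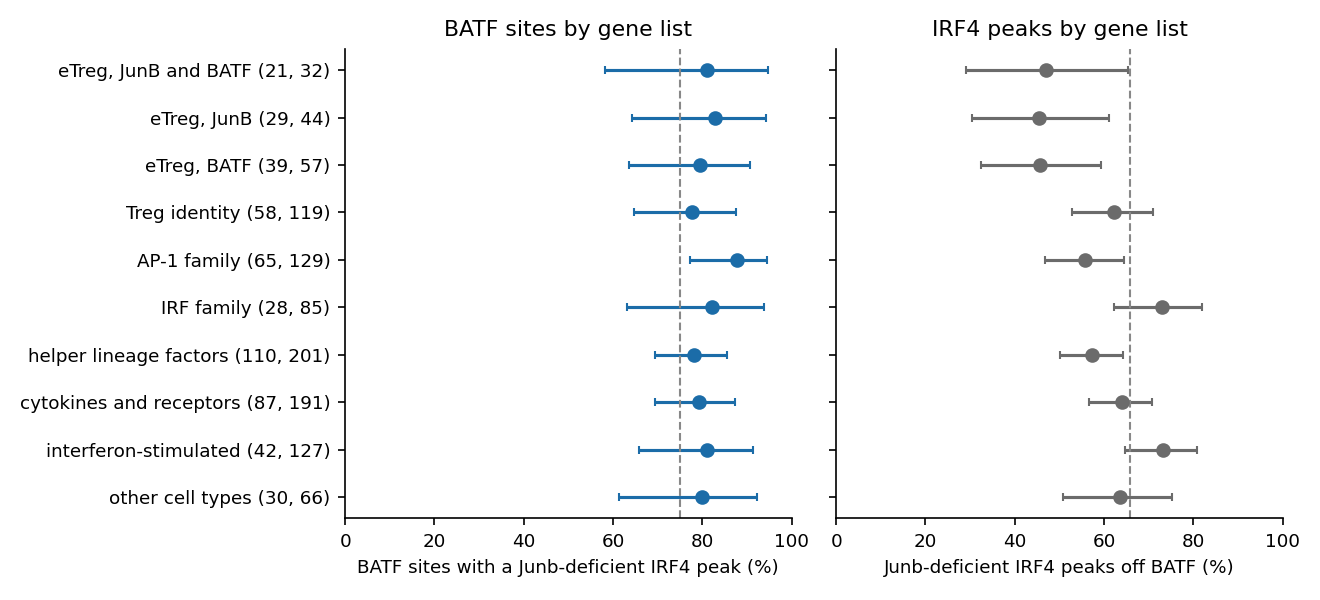
Left, share of BATF sites within 100 kb of a listed gene's TSS that hold a Junb-deficient IRF4 peak, in %; right, share of Junb-deficient IRF4 peaks there that lie off BATF, in %; bars are exact binomial 95% intervals, dashed lines all sites within 100 kb of a TSS (75.0% and 65.8%), and the numbers after each name count BATF sites and IRF4 peaks. The left panel shows intervals across the background for all lists but the AP-1 family, and in the right panel the 3 eTreg lists, the AP-1 family and the helper lineage factors lie below it; the dashed lines are not adjusted for place in the list.

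Prdm1, which encodes the effector Treg regulator Blimp-1, had the highest-placed BATF site of the eTreg genes. It lay in an intron 14080 bp from the nearest Prdm1 TSS, at place 22 of the BATF list, and its IRF4 peak stood at place 18 without Junb and at place 9 with Junb. Of 9 BATF sites near Prdm1, 7 held Junb-deficient IRF4, and both of the others held IRF4 in Junb-sufficient cells only, at places 4092 and 11604. The gene thus combined one of the highest-placed shared sites with sites at which only the Junb-sufficient list had IRF4. The study reports unaffected IRF4 and BATF binding without JunB at the sites it examined near Prdm1. Those sites were not matched to the sites listed here.

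At single genes the places come from lists of 29033 Junb-deficient and 31093 Junb-sufficient IRF4 peaks, and with 1 library each no replicate shows how far a place moves between preparations of one genotype. At Icos and Ctla4, which encode a costimulatory receptor and an inhibitory receptor of Treg cells, the highest-placed BATF sites held IRF4 without Junb. Those at places 187 and 244 had Junb-deficient IRF4 at places 386 and 175, compared with 274 and 192 in Junb-sufficient cells. The 3 sites near Ctla4 without Junb-deficient IRF4 stood at BATF places 418, 1176 and 2177. At places 1176 and 2177 IRF4 was listed in Junb-sufficient cells (places 1001 and 1696), and at place 418 in neither genotype. The site at place 418 lay 27886 bp downstream of the nearest Ctla4 TSS. At about this distance the study reports IRF4 binding that was reduced by JunB deficiency, in ChIP-seq and in ChIP-PCR. A peak that is not listed there is therefore not evidence that IRF4 was absent. A pair of sites near Ctla4, at BATF places 6940 and 6941, held Junb-deficient IRF4 at places 22010 and 24641, compared with 10365 and 4807 in the Junb-sufficient list. Icos had an additional site without a Junb-deficient counterpart, 76723 bp downstream of its TSS, where the Junb-sufficient IRF4 peak stood at place 2431.

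Gzmb, which encodes the cytotoxic protease granzyme B, had the widest difference of place among the eTreg sites that kept an IRF4 peak. At the site 62947 bp upstream of its TSS, BATF stood at place 654 and IRF4 at place 1443 with Junb and at place 27237 of 29033 without. Its window holds AP-1 and AICE letters and it overlapped a JunB peak. Of the other 4 sites near Gzmb, 3 held Junb-deficient IRF4, at places 2733, 7158 and 21846.

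Maf, which encodes a transcription factor of effector T cells, had a Junb-deficient IRF4 peak listed at all 4 of its BATF sites. By ChIP-PCR the study reports less IRF4 binding without JunB at sites near Maf, and likewise near Gzmb, Icos and Ctla4. A listed peak therefore does not show that binding was unchanged. The places of IRF4 near Maf were 3859, 4281, 12432 and 13286 without Junb and 1158, 3002, 2358 and 5663 with Junb, each lower without Junb. At Tigit, which encodes an inhibitory receptor, 8 of 9 sites held Junb-deficient IRF4. For 6 of these the IRF4 peak stood higher in the Junb-deficient list than in the Junb-sufficient one. The site at BATF place 1384 had Junb-deficient IRF4 at place 342 and Junb-sufficient IRF4 at place 736.

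Among the BATF-dependent genes, the chemokine receptor gene Ccr2 had the lowest share, with 5 of 9 sites, and Ccr9 kept all 5. Of the 4 Ccr2 sites without Junb-deficient IRF4, 3 held no IRF4 in Junb-sufficient cells either. Ccr2 nevertheless held a site high in every list, at place 128 for BATF, 289 for Junb-deficient IRF4 and 80 for Junb-sufficient IRF4. Il1rl1, which encodes the IL-33 receptor ST2, had 7 of 8 sites with Junb-deficient IRF4. Its site at BATF place 143 had IRF4 at place 3227 without Junb and 355 with Junb, while that at BATF place 6790 had IRF4 at place 451 without Junb and 1779 with Junb. Fgl2 held Junb-deficient IRF4 at 4 of 5 sites and the adenosine-producing ectoenzyme gene Nt5e at 5 of 6, and in either gene the remaining site had IRF4 in Junb-sufficient cells.

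**Figure D5:**
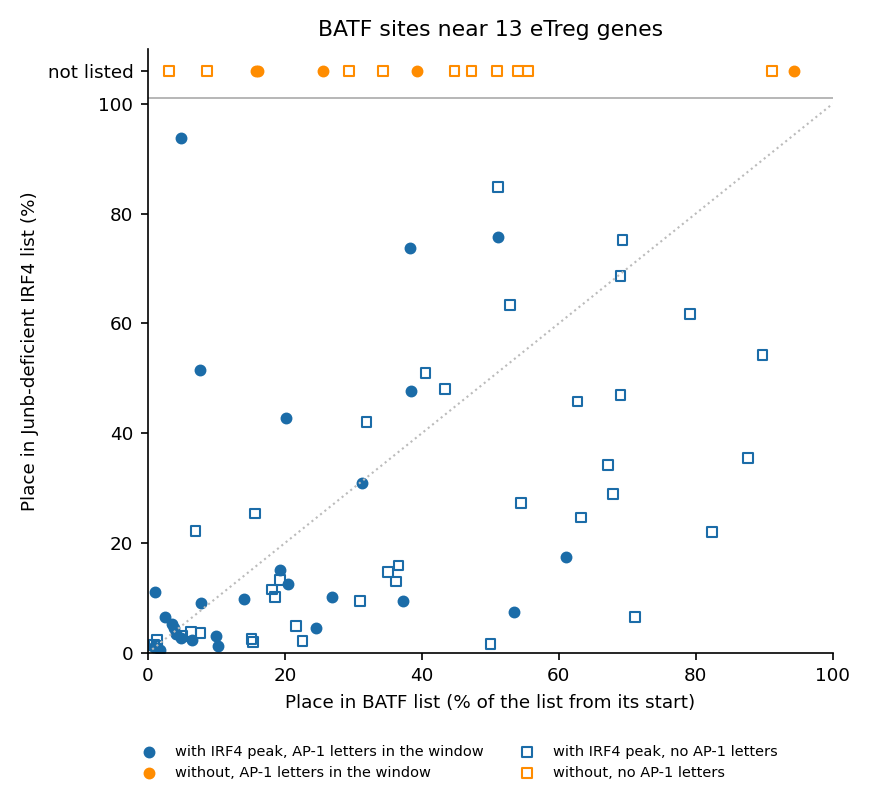
Each of the 81 BATF sites within 100 kb of 13 eTreg genes by its place in the BATF list and the place of its Junb-deficient IRF4 peak, both as % of the list from its start; sites with no such peak are drawn above the line as not listed, filled symbols hold AP-1 letters, and the dotted line marks equal places. The 15 sites not listed lie between BATF places 418 and 12799, all but those at 12369 and 12799 at place 7533 or above it in the list, and the filled symbol at the upper left is the Gzmb site at BATF place 654 and IRF4 place 27237.

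Genes of the factors themselves held IRF4 without Junb at most of their BATF sites, as did 75.0% of all BATF sites near genes. All 7 sites near Batf and all 8 near Atf3, another bZIP factor, did, and so did 8 of 9 near Irf4. Other genes of the AP-1 list had lower shares, such as Batf2 with 2 of 4 and Bach1 with 3 of 5. The site 1636 bp upstream of the Irf4 TSS stood at BATF place 652 and at place 44 in the Junb-deficient IRF4 list, compared with 232 in the Junb-sufficient list. Junb itself had 1 BATF site, which held Junb-deficient IRF4.

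Foxp3, the lineage factor of Treg cells, had 4 BATF sites within 100 kb, all with Junb-deficient IRF4. The one 2134 bp upstream of a Foxp3 TSS stood at place 8609 of the BATF list, had no JunB peak, and held IRF4 at place 2315 without and 4114 with Junb. Il2ra, which encodes the IL-2 receptor alpha chain CD25, had a BATF site 142 bp upstream of its TSS (place 2247) with IRF4 in Junb-sufficient cells only, at place 1084. Of its other sites, the one at BATF place 5018 held IRF4 in Junb-deficient cells only. At Il10, the gene of an immunosuppressive cytokine, 5 of 6 sites held Junb-deficient IRF4, and the site 29836 bp upstream of the TSS, at BATF place 585, held IRF4 in neither genotype.

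Ikzf2, which encodes the Treg factor Helios, was the reverse case. Neither of its 2 BATF sites held Junb-deficient IRF4, but 9 Junb-deficient IRF4 peaks lay off BATF within 100 kb of its TSS. One of these, 6177 bp upstream of a TSS, was among the 5 highest-placed IRF4 peaks off BATF in the whole list (place 308). It had no JunB peak and was listed in Junb-sufficient cells as well.

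Over the whole genome, 6377 genes had at least 1 BATF site by nearest TSS. All sites of 3986 genes held Junb-deficient IRF4 and no site of 1075 did. Most genes in both counts had 1 site only. Genes with 1 site numbered 3803, and at 2830 of them that site held Junb-deficient IRF4, near the 75.0% of all BATF sites near genes. Of 379 genes with 5 or more sites, all sites of 76 held Junb-deficient IRF4, fewer than 50% of the sites did in 23, and in none were all sites without it. The share changed little with the number of sites at a gene, from 74.4% (73.0 to 75.8%) at genes with 1 site to 76.9% (72.3 to 81.1%) at genes with 10 or more, although the latter sites stood higher in the list, at a median of 30.8% compared with 59.9%.

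The gene with the most BATF sites was Bach2, which encodes a bZIP repressor that restrains effector differentiation of T cells. Of its 20 sites, 18 held Junb-deficient IRF4, and 10 further Junb-deficient IRF4 peaks lay off BATF. Foxp1, a forkhead factor of quiescent T cells, followed the same pattern with 13 of 14 sites, as did Akap13, an A-kinase anchor protein, with 13 of 15. Lower shares were found at Pde4b, a cAMP phosphodiesterase, with 10 of 16 sites, and at Inpp4b, a phosphoinositide phosphatase, with 10 of 15.

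Among genes with 5 or more sites, all sites held Junb-deficient IRF4 at Arhgap26 (13), Arid5b (10), Atp11b (9), Gtdc1 (9) and Rbpj (9), the last being the nuclear effector of Notch signalling. The lowest shares were those of Gm15319, with 1 of 5 sites, Prkch, a protein kinase C isoform of T cells, with 2 of 7, and Arhgap12, the chromatin remodeller gene Chd7 and the cytokine receptor kinase gene Jak1, each with 2 of 6. These genes were chosen for their shares, so the values describe the extremes of the list. At Chd7 and Jak1 a further 12 and 7 Junb-deficient IRF4 peaks lay off BATF.

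IRF4 peaks off BATF were assigned to 9772 genes by nearest TSS, of which 5494 had no BATF site. The most such peaks lay at Prkcq, the protein kinase C theta of T cell receptor signalling, and Zbtb20, each with 15, followed by Itpr1, which encodes a calcium release channel, and Vav3, each with 14, and Celf2 with 13. All 5 genes also had BATF sites, 3 at Prkcq and 13 at Celf2. Of the IRF4 peaks off BATF in the whole list, 55.4% (54.7 to 56.1%) were listed in Junb-sufficient cells too, and 41.5% (40.8 to 42.2%) overlapped neither a Junb-sufficient IRF4 peak nor a JunB peak.

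BATF sites without Junb-deficient IRF4 were few at the start of the list, with 58 in the first of 10 parts. The highest-placed one, chr17:39984121-39984733 at place 8, overlapped a JunB peak and no IRF4 peak in either genotype, and lay 361127 bp from the nearest protein-coding TSS. Next came sites on chromosomes X, 1, 8 and 4 at places 58, 138, 193 and 205, all with JunB and Junb-sufficient IRF4 peaks. The one at place 193 lay in an intron, with Inpp4b as the gene of the nearest TSS, and the one at place 205 in an intron 2657 bp from the TSS of the phosphatase gene Ptp4a2. Across chromosomes 1 to 19 and X, the share of BATF sites with Junb-deficient IRF4 ranged from 71.0% on chromosome 8 to 80.3% on chromosome 17.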

How the data were processed

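ChIP-seq peak lists of 4 libraries, 1 per condition, were used as deposited. The authors mapped the reads with Bowtie2 to mm9, and HOMER (version 4.8 in the submitters' processing notes) called peaks in each library alone, at a false discovery rate of 0.001 and, against the surrounding 10 kb, a 4-fold excess. The deposited score column is 1 for every peak and was not used as a measurement. Starts were converted to positions counted from 1.

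Peaks overlapping by 1 bp were paired, with the larger overlap kept. Annotation and TSSs came from GENCODE on the same assembly, and 69976 TSS positions of protein-coding genes were used. All peaks lay within its chromosomes. Distances were taken from peak centres. Shares have exact 95% binomial intervals, and strata of place are 20 equal parts of a list. For the gene lists, the share of all peaks near genes was also averaged over the strata in which a list's peaks stood, a comparison chosen after the lists' values were seen. Depth ranged from 21127029 to 27399986 recorded tags over the 4 libraries. Scripts ran in Python 3.11.15 with NumPy 2.4.6, SciPy 1.17.1, pandas 2.3.3, pysam 0.24.0 and matplotlib 3.10.9, and overlap, odds ratio and motif matching were tested on simulated data.

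The classes, the 10 gene lists (135 genes, all matched by symbol) and the letters of the motifs were chosen with earlier results of these data known. Listed genes with 4 or more BATF sites within 100 kb could be described, and those that were, with others named for contrast or as list members (Foxp3, Il2ra, Ikzf2, Junb, Alb, Klrg1 and Ccr10), were chosen with their values known. Also named were the 5 highest-placed peaks of each class, and the genes with the most sites or with the highest and lowest shares. Samples were grouped by title. The antibody field, in which the 2 factors stand exchanged for the Junb-sufficient libraries, was run as an alternative. The second round of ChIP-seq experiments that the study describes was not analysed here. One high-placed BATF site with an AICE is not reported here.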

Additional observations from a re-analysis of the deposited data

How the results depend on the processing

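The main values were 74.8% of BATF sites with Junb-deficient IRF4, 35.0% of those IRF4 peaks on BATF, differences of 18.8 points for JunB (with minus without), 16.9 points for promoters (off BATF minus with), 7.71 points (without minus with) and 28.8 points (with minus off BATF) for AP-1 letters, and 81.5% near eTreg genes. No alternative that was run turned a direction, but not every alternative was run for every value. The exchange of the libraries was run for the overlap shares and the JunB and promoter differences. It was not run for the AP-1 differences, the eTreg share or the odds ratios. With centres within 100 bp the first 3 were 64.0%, 29.9% and 24.0 points, and with overlap of 50% of each peak the shares were 70.4% and 32.9%. With the BATF and IRF4 libraries of Junb-sufficient cells exchanged they were 65.0% and 69.6%, and the promoter difference was 0.220 points, so the promoter contrast holds only under the titles. In the first 50% of each list the values were 76.5%, 35.8%, 10.3 points for JunB, 14.7 for promoters and 10.5 for AP-1 without minus with. With as many IRF4 as BATF peaks both shares were 55.6%. Promoters of 5 kb gave 14.4 points, and windows of 50 bp either side 5.53 and 25.7 points for AP-1. Leaving out BATF sites near another IRF4 peak, chosen after seeing the data, gave 78.4% and 22.7 points for JunB. The cause of these changes was not tested beyond how each alternative was built. With 1 library per condition no replicate could be left out and no genotype difference could be tested, and without heights an IRF4 peak just under the threshold is not told from no binding.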
